A study of Mus musculus with 6 samples.

Results

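The mouse major histocompatibility complex, called H2, was examined by RNA-Seq of olfactory mucosa in wild-type mice and in mice lacking the receptor transporters RTP1 and RTP2 (RTP1,2DKO). All genes whose name begins with H2- were taken, which gave 44 genes with 50 transcripts, out of 24661 genes with 38041 transcripts in the files. The series holds 3 wild-type and 3 RTP1,2DKO mice, given as strain C57BL/6 and age 21 days in the labels, where the mutants are RTP1 and RTP2 -/-. According to the methods, the coding regions of both genes were replaced in an embryonic stem cell line of mixed 129 and B6 origin, the allele was kept by backcrossing to C57BL/6, and each mutant was compared with a littermate of the same sex. The wild-type mice carry no engineered allele, and neither group received a treatment. The tissue is named olfactory epithelium in the labels and whole olfactory mucosa in the methods, so it includes the lamina propria with its blood vessels and resident immune cells.

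MHC class I molecules are heavy chains that pair with beta-2 microglobulin (B2m) and show peptides from inside the cell to CD8 T cells. Nearly all cells make the classical class I chains, H2-K and H2-D, and interferons induce them. MHC class II molecules are pairs of an alpha and a beta chain that show peptides from ingested material to CD4 T cells, and dendritic cells, B cells and macrophages are their main producers. The non-classical class I genes of the Q, T and M regions are less polymorphic, several have roles outside peptide display to CD8 T cells, and the H2-M10 genes are known from sensory neurons of the vomeronasal organ, where they are expressed together with V2R pheromone receptors. The non-classical class II genes H2-DM and H2-O encode proteins of the endosome that regulate peptide loading.

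The 44 genes were divided by these roles. They comprised 3 classical class I genes (H2-K1, H2-D1 and H2-L), 9 Q genes, 8 T genes including H2-T-ps and H2-Bl, 12 M genes, and H2-K2, which GENCODE marks as a transcribed pseudogene. The class II genes were 5 classical (H2-Aa, H2-Ab1, H2-Eb1, H2-Eb2 and H2-Ea-ps) and 5 non-classical (H2-DMa, H2-DMb1, H2-DMb2, H2-Oa and H2-Ob). The remaining gene, H2-Ke6, carries the name for its place and encodes a hydroxysteroid dehydrogenase. GENCODE M21 held 40 of the 44, all on chromosome 17, from H2-K2 at chr17:33974659-33978827 to H2-M2 at chr17:37480851-37483552 (GRCm38). After rounding, 41 genes had at least 1 count in some mouse and were tested, and 32 had a mean of at least 10 counts over the 6 mice.

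Because class I genes arose from repeated duplication, a short stretch of an exon is shown as an example of their likeness. It does not stand for the whole transcripts. In class I genes the third coding exon encodes part of the peptide-binding groove, which is not claimed for the H2-DMb genes. The 60 bases at the start of the third coding exon are given here from the GRCm38 transcripts of GENCODE M21, 5′ to 3′, for genes whose reads compete. Capitals mark bases that differ from H2-K1 in the first set, from H2-T22 in the second, from H2-M10.3 in the third and from H2-DMb1 in the last.
H2-K1, chr17:33999487-33999546, minus strand: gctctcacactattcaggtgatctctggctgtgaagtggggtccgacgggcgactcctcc
H2-D1, chr17:35263839-35263898, plus strand: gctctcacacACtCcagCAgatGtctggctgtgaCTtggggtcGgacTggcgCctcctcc
H2-Q4, chr17:35380361-35380420, plus strand: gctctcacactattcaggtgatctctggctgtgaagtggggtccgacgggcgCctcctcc
H2-Q7, chr17:35439909-35439968, plus strand: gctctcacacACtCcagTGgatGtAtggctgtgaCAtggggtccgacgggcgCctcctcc
H2-T22, chr17:36041626-36041685, minus strand: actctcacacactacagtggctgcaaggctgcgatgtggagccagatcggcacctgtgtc
H2-T10, chr17:36120373-36120432, minus strand: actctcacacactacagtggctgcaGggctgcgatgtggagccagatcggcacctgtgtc
H2-M10.3, chr17:36367532-36367591, minus strand: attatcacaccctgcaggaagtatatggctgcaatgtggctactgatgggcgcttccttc
H2-M10.5, chr17:36773726-36773785, plus strand: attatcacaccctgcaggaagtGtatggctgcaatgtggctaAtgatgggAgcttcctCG
H2-DMb1, chr17:34157246-34157305, plus strand: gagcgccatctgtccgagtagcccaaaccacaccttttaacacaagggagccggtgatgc
H2-DMb2, chr17:34148551-34148610, plus strand: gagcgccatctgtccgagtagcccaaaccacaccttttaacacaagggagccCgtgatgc

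H2-D1 differed from H2-K1 at 11 of these 60 bases, while H2-Q4 differed from it at 1. H2-Q7 differed from H2-K1 at 10 bases. H2-T10 differed from H2-T22 at 1 base, and H2-DMb2 from H2-DMb1 at 1 base. H2-M10.5 differed from H2-M10.3 at 5 bases.

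Whole GENCODE M21 transcripts were cut into words of 31 bases, the length kallisto matches by default. The genes differed in how many of their words occurred in no other gene. The authors ran kallisto on UCSC transcripts, so these shares are not those that kallisto faced. H2-Aa, for example, had 3843 such words, while its deposited transcript has 1084 bases. Classical class II chains were nearly free of shared words, with 99.1% of the words of H2-Aa, 99.7% of H2-Ab1 and 98.9% of H2-Eb1 found in that gene only. The non-classical class II genes ranged from 63.4% in H2-DMb2 and 68.6% in H2-DMb1 over 81.7% in H2-Oa to 100% in H2-Ob. The classical class I chains had 77.2% in H2-K1 only and 73.1% in H2-D1 only, while several non-classical class I genes shared few words, with 99.6% in H2-M11 only, 96.8% in H2-M2, 95.6% in H2-T3 and 93.4% in H2-T24. Apart from H2-Ke6, the lowest values were 32.6% in H2-T22 and 35.8% in H2-T10, which GENCODE marks as a polymorphic pseudogene. H2-T22 and H2-T10 shared 47.2% and 47.6% of their words with each other. H2-Q5 had 42.2% of its words in no other gene and shared 43.2% with H2-Q7. Among the M10 genes the share in no other gene lay between 69.7% in H2-M10.5 and 81.4% in H2-M10.6. H2-Ke6 shared 76.1% of its words with Gm20427, an annotated gene that overlaps it. H2-L, H2-Q8, H2-Q9 and H2-T9 were not in this annotation and have no value.

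**Figure D1:**
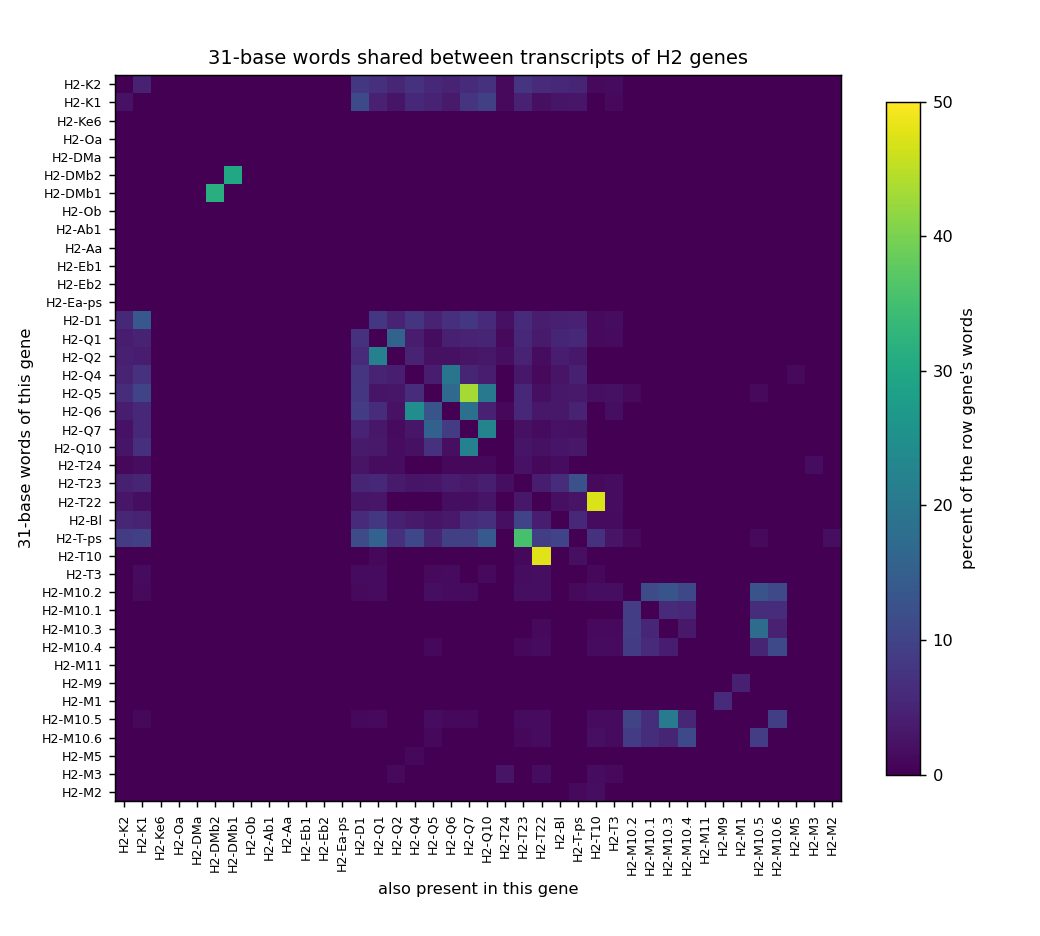
Share of the 31-base words of each gene (rows) in GENCODE M21 transcripts that also occur in another H2 gene (columns), in percent by colour. Genes are in chromosomal order and shares under 1% are drawn as 0. The highest shares lie within the T genes, with H2-T10 and H2-T22 at 47.6% and 47.2%, and within the Q genes. There, 43.2% of the words of H2-Q5 also occur in H2-Q7. The pair H2-DMb1 and H2-DMb2 follows at 31.4% and 29.7%.

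The estimated counts show where reads were divided. A gene whose reads match it alone receives whole counts from kallisto, and H2-Aa, H2-Ab1, H2-Eb1, H2-DMa, H2-Ob and H2-Ke6 had whole counts, within 0.02, in 6 of 6 mice. H2-K1, H2-D1, H2-Q4, H2-Q5, H2-T10, H2-T24, H2-M10.3, H2-M10.5 and H2-M10.6 had whole counts in 0 of 6 mice, so part of their reads was divided between genes by the estimate. The split did not follow the shared words throughout. H2-Ke6 shared most of its words and was whole, and H2-T24, H2-T3 and H2-M2 shared few and were whole in 0 of 6 mice. The words and the counts rest on different transcript sets, and the cause of this mismatch was not tested. H2-DMb1 and H2-DMb2 were each whole in 0 of 6 mice, yet their sum was whole in 6 of 6 mice, at 131, 115 and 100 in wild-type mice and 87, 142 and 99 in RTP1,2DKO mice. The sum of the 6 M10 genes was whole in 4 of 6 mice. The sum of H2-T9, H2-T10 and H2-T22 was whole in 0 of 6 mice, as was that of H2-Q6 to H2-Q9. These sums do not depend on how reads were divided between the genes of each set. A sum that is not whole still holds reads divided with genes outside its set.

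The promoters of the classes differ in the motifs for which MHC genes are known, and are shown for the most abundant gene of class I, class II and the M10 group, and for H2-Eb1. Each run covers 250 bases before the start that RefSeq annotates and the 30 bases from it (GRCm38.p6). Capitals mark the core letters GGGATTCCC of class I enhancer A and the interferon response letters GTTTCACTT. They also mark the letters CTGATTGG, searched for as the Y box, or their reverse complement, and the X box letters CTAGCAAC.
H2-K1, chr17:34000318-34000597, minus strand: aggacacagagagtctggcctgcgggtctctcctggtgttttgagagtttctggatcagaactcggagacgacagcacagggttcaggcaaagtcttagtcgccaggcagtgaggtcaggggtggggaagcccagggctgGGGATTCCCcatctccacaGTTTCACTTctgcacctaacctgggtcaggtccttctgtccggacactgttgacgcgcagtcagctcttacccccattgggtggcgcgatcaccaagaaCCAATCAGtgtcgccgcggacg
H2-M10.3, chr17:36368388-36368667, minus strand: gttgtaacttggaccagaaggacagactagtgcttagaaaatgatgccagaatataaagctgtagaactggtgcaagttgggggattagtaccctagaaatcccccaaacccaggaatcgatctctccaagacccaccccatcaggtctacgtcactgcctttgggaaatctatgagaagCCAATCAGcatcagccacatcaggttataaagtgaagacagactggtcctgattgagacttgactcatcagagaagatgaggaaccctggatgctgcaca
H2-Aa, chr17:34287794-34288073, minus strand: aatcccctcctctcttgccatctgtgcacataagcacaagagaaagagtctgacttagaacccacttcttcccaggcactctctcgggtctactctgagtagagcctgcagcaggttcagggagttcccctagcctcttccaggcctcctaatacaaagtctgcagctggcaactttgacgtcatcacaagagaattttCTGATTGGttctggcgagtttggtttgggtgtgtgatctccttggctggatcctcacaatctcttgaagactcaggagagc
H2-Eb1, chr17:34305617-34305896, plus strand: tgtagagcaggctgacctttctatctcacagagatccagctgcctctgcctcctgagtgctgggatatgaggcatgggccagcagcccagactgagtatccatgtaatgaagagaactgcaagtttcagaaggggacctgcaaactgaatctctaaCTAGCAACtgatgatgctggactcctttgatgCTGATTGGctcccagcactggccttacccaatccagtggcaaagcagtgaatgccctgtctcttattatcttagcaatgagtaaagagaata

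RefSeq promoters were found for 32 of the 44 genes, and the motifs were counted in them and in 27025 promoters of the same length on both strands. GGGATTCCC stood in 4 of the 32, those of H2-K1, H2-D1, H2-Q6 and H2-Q7, against 0.37% of all promoters. GTTTCACTT stood in 9 of the 32 (H2-K1, H2-D1, H2-Q4, H2-Q6, H2-Q7, H2-Q10, H2-T22, H2-T3 and H2-M3) against 0.403% of all, and no class II promoter held it. The letters CTGATTGG, searched for as the Y box, stood in 18 of the 32 against 4.31% of all. Each match also holds the letters CCAAT on a single strand, which 28 of the 32 and 37.9% of all promoters held. CTGATTGG read on the gene's strand in the class II genes H2-Aa, H2-Eb1, H2-Eb2 and H2-Oa. In the other 14, all of class I, it read on the opposite strand. The H2-K1 match lay 8 to 15 bases after the annotated start. H2-K1 and H2-D1 also held a separate CCAAT on the opposite strand, from -16 and from -76. Whether the class I matches are the Y box of those genes was not tested, so no difference in Y box strand between classes is drawn. CTAGCAAC stood in H2-Ob, H2-Eb1 and H2-Eb2 against 1.4% of all. These matches are descriptions of letters in a window, and no binding was measured.

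The total estimated count lay between 31125410 and 41636996 per mouse, and the H2 genes took 0.0255% to 0.0363% of it, or 8618 to 13935 counts. Rtp1 had 20522, 25301 and 13543 normalized counts in the wild-type mice, in the order of their replicate numbers, against 90.6, 85.5 and 108.8 in the RTP1,2DKO mice, and Rtp2 had 8497, 9511 and 7157 against 58.0, 26.2 and 51.0, as the labels state. Normalized counts are counts divided by a median-of-ratios size factor, and they are used here to compare mice. TPM, the deposited share of transcripts after division by effective length, is used to compare genes. Mature olfactory sensory neuron (OSN) markers were low in the mutants, with 6 of 8 past the test downwards, 8 of 8 with the replicate block, and a sum of 228236 to 265866 normalized counts in wild-type mice against 140755 to 146079 in RTP1,2DKO mice. In bulk tissue, fewer cells of a type and less RNA per cell cannot be told apart.

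H2-Aa, the class II alpha chain, was the most abundant H2 gene, at 124, 167 and 142 TPM in wild-type mice. H2-K1 followed at 49.5, 68.5 and 49.3 TPM, H2-Ab1, the beta chain that pairs with H2-Aa, at 45.8, 70.0 and 45.1 TPM, and H2-D1 at 47.6, 51.9 and 34.1 TPM. H2-Aa lay above H2-K1 in every pair of wild-type values, whereas H2-K1, H2-Ab1 and H2-D1 overlapped one another in this order. The next were H2-T23, which encodes Qa-1, at 14.7 ± 3.12 TPM (SD, n = 3), H2-Ke6 at 14.2 ± 4.28 and H2-T22, a ligand of some gamma-delta T cells, at 13.2 ± 1.17, and these did not separate from each other. All 3 lay below every value of H2-D1.

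Lower levels formed a continuous series. H2-Eb1, a class II beta chain, had 7.96 ± 1.25 TPM (SD, n = 3), H2-DMb2 7.87 ± 1.48, H2-M10.3 7.10 ± 0.683, H2-T24 6.07 ± 2.09, H2-Q4 5.36 ± 1.16, H2-Q5 4.2 ± 0.622, H2-DMa 3.78 ± 0.58 and H2-DMb1 2.66 ± 1.13, with overlap between each and the next. The other 17 of the 32 genes lay between 0.087 TPM (H2-T3) and 2.59 TPM (H2-M10.6). H2-T22 lay above H2-Eb1 in every pair of wild-type values. The order rests on effective lengths that are much shorter than the transcripts, such as 238 of 786 bases for H2-DMb2. Per kilobase of annotated length, a measure added after the data were seen, H2-DMb2 moved from rank 9 to rank 13, while H2-Aa and H2-K1 kept ranks 1 and 2.

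**Figure D2:**
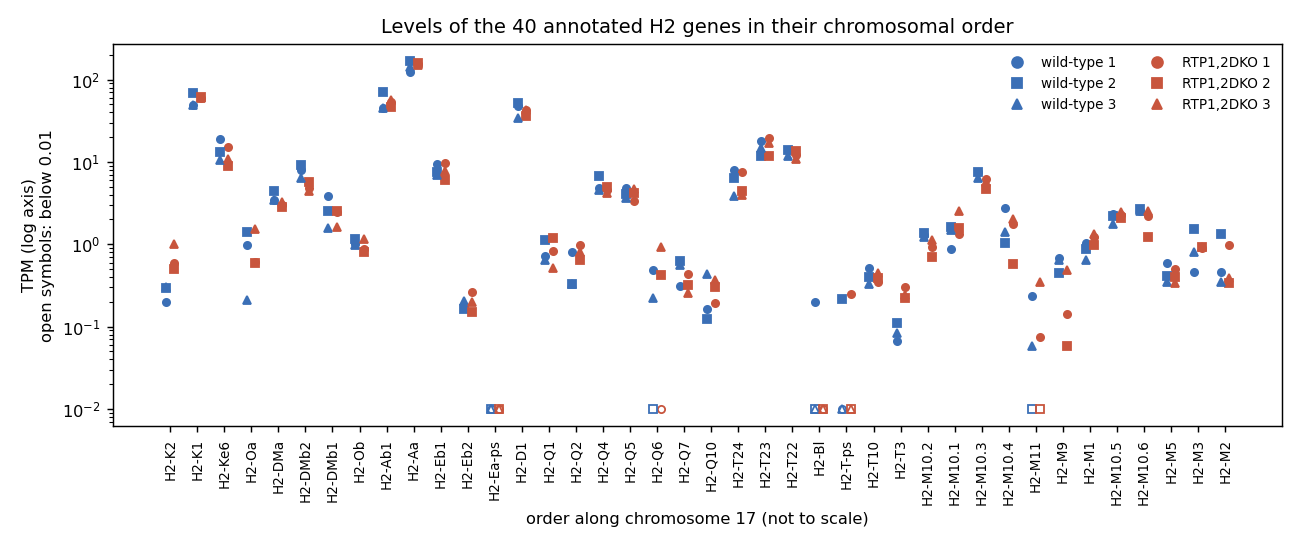
TPM (log axis) of the 40 annotated H2 genes in their order along chromosome 17, with a symbol per mouse, wild-type in blue and RTP1,2DKO in red, and open symbols for values below 0.01. H2-K1, H2-Ab1, H2-Aa and H2-D1 stand at 34.1 TPM or above in every mouse, H2-Ea-ps is below 0.01 in every mouse, and the M genes at the far end reach at most 7.54 TPM.

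The class II classical genes held 51.0% ± 4.04 (SD, n = 3) of the TPM of all H2 genes in wild-type mice, and the class I classical genes 24.7% ± 1.38. The T genes held 8.71% ± 1.73, the M genes 4.93% ± 0.446, the class II non-classical genes 4.01% ± 0.491 and the Q genes 3.02% ± 0.133. H2-Aa alone held 32.0% to 41.1% in the 6 mice. The chains of class II were not detected in equal amounts, with H2-Aa at 2.39 to 3.44 times the TPM of H2-Ab1 and 13.2 to 26.4 times that of H2-Eb1. H2-Aa also stood at 1.95 to 3.61 times the TPM of Cd74, the invariant chain that accompanies class II molecules to the endosome. B2m, the light chain of class I, stood at 4.27 to 6.26 times the TPM of H2-K1.

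H2-L, which C57BL/6 mice are known to lack, had 0 counts in all 6 mice, as had H2-Ea-ps, the alpha chain gene that is not expressed in this haplotype. H2-Q9 had at most 0.00518 TPM in a mouse and no count after rounding. H2-Eb1, whose partner alpha chain is H2-Ea-ps, was nevertheless measured with 228.0 to 373.4 normalized counts in every mouse. Zero counts say only that no read was assigned to the deposited transcript, and the 129 and C57BL/6 alleles were not separated.

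In the comparison of RTP1,2DKO with wild-type mice, no H2 gene passed the threshold of an adjusted p under 0.05. edgeR's quasi-likelihood test with Benjamini-Hochberg adjustment over 22152 genes called 799 genes in all (3.61%), of which 102 were higher (0.46%) and 697 lower (3.15%) in RTP1,2DKO. It called 0 of 41 H2 genes, and with the replicate number as a block it again called 0, against 4.57% of all genes. DESeq2's Wald test, which called 5.66% of the genes it gave an adjusted p, and edgeR's likelihood-ratio test also called 0 H2 genes. An unadjusted p under 0.05 was found for 3 of 41 H2 genes, against 11.8% of all genes tested. The smallest adjusted p among H2 genes was 0.3467. The median log2 fold change was 0.13 over the 41 genes and 0.02 over all genes tested, and 27 of the 41 had a positive log2 fold change, against 52.6% of all genes.

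**Figure D3:**
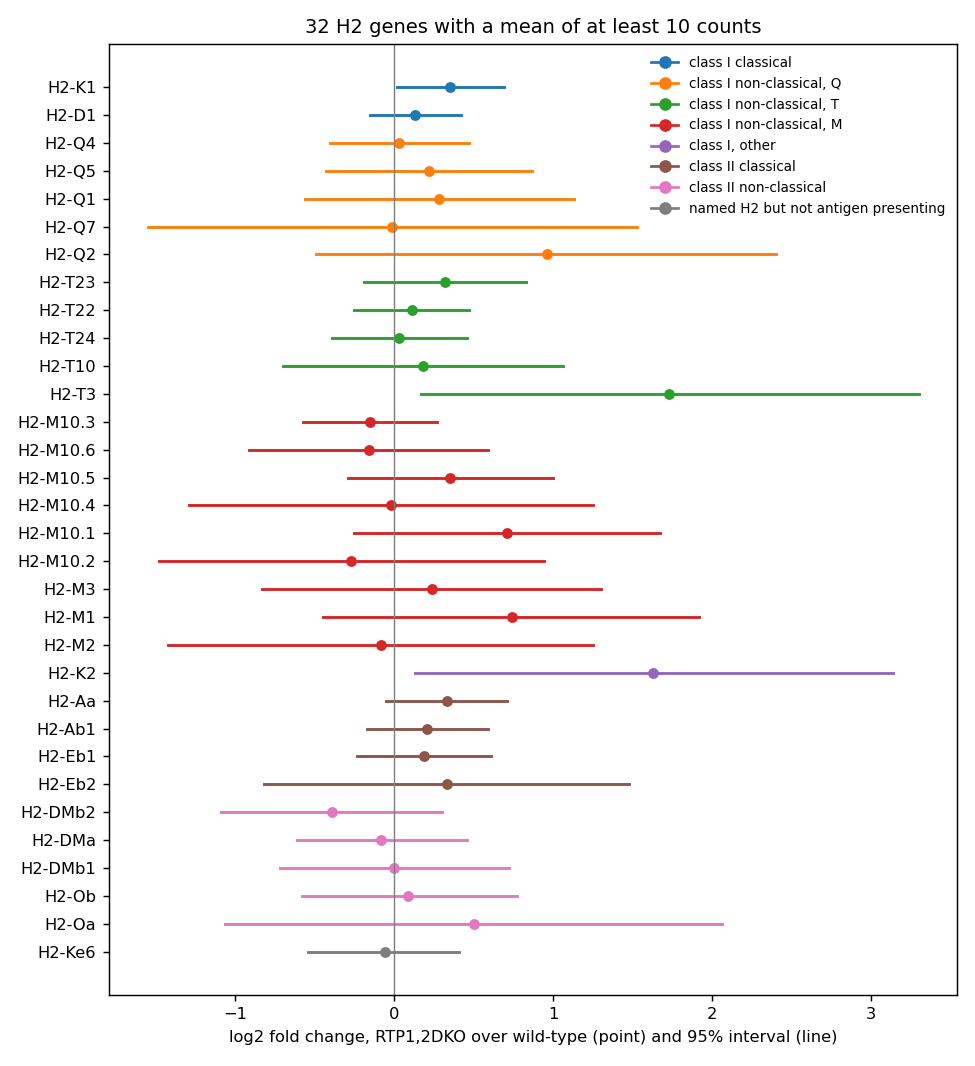
Log2 fold change of RTP1,2DKO over wild-type (point) with its unadjusted 95% interval (line) for the 32 H2 genes with a mean of at least 10 counts, coloured by class. Of these, 22 points lie above 0, the intervals of H2-K1, H2-T3 and H2-K2 lie wholly above 0, and intervals of genes with few counts span more than 2 log2 units.

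H2-K1, the classical class I chain with the most counts, had 1586, 2063 and 2275 normalized counts in wild-type mice and 2094, 2642 and 2832 in RTP1,2DKO mice. The groups overlapped, since RTP1,2DKO mouse 1 lay below wild-type mouse 3. Within same-numbered pairs, the mutant was higher by 0.40, 0.36 and 0.32 on the log2 scale. The fitted log2 fold change was 0.35 with a 95% interval of 0.02 to 0.69, an unadjusted p of 0.0412 and an adjusted p of 0.3901 (edgeR). With the replicate number as a block the adjusted p was 0.0936, and leaving out single mice gave log2 fold changes from 0.22 (without wild-type mouse 1) to 0.47 (without wild-type mouse 3 or RTP1,2DKO mouse 1).

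H2-D1 had 1616, 1655 and 1672 normalized counts in wild-type mice and 1582, 1681 and 2162 in RTP1,2DKO mice. RTP1,2DKO mouse 3 alone stood above the rest, and the other 5 values lay within 1582 to 1681. The log2 fold change was 0.13 with a 95% interval of -0.15 to 0.42, and -0.02 without RTP1,2DKO mouse 3.

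**Figure D4:**
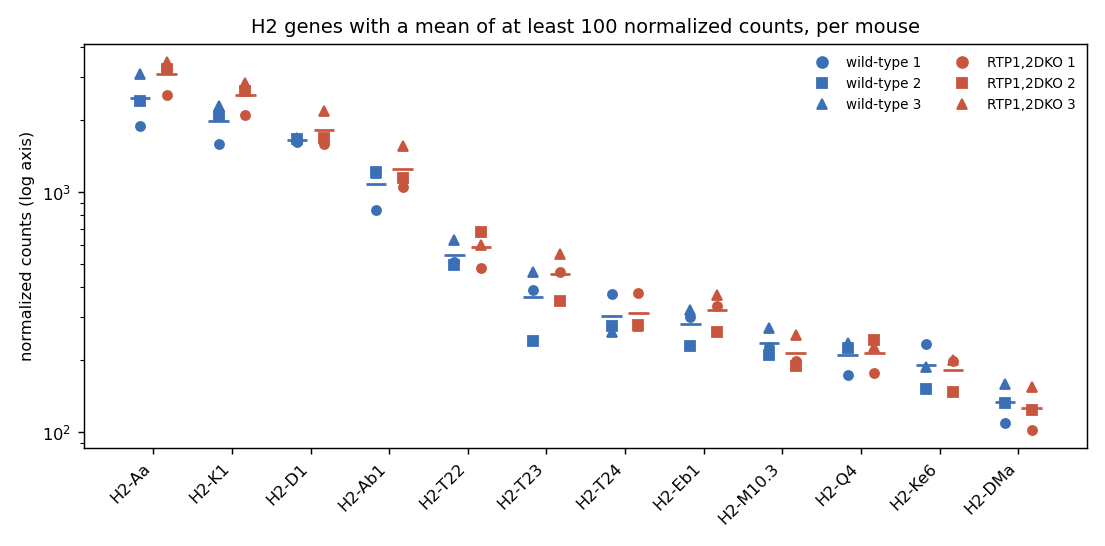
Normalized counts (log axis) of the 12 H2 genes with a mean of at least 100, with a symbol per mouse and a bar at the mean of 3 mice, wild-type in blue and RTP1,2DKO in red. The groups overlap for every gene drawn, RTP1,2DKO mouse 3 is highest for 6 of the 12 genes, and wild-type mouse 1 is lowest for 4.

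Of the Q genes, H2-Q4 had 172.7, 223.3 and 233.7 normalized counts in wild-type mice and 176.0, 240.7 and 226.4 in RTP1,2DKO mice, a log2 fold change of 0.03 with a 95% interval of -0.4 to 0.47. The values of mice 1 to 3 were nearly the same in both genotypes. H2-Q5, which GENCODE marks as a polymorphic pseudogene, had a log2 fold change of 0.22 (95% interval -0.43 to 0.87), H2-Q1 of 0.28 (-0.56 to 1.13) and H2-Q7 of -0.01 (-1.55 to 1.53). H2-Q2 had 12.4, 4.8 and 7.7 normalized counts in wild-type mice and 16.9, 13.1 and 18.6 in RTP1,2DKO mice, with no overlap, a log2 fold change of 0.96 (-0.49 to 2.40) and an adjusted p of 0.6864.

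Estimated counts alternated between H2-Q6 and H2-Q8. H2-Q6 had 6.2, 0.0 and 4.4 normalized counts in wild-type mice and 0.0, 7.0 and 16.7 in RTP1,2DKO mice, while H2-Q8 had 0.0, 13.4 and 0.0 and then 7.4, 0.0 and 0.0. Each of the 6 mice had counts on exactly 1 gene of the pair. These values were singled out after they were seen, and both genes had a mean under 10 counts. The summed estimated counts of H2-Q6 to H2-Q9 lay between 10.8 and 26.7 per mouse, with a log2 fold change of 0.16 (95% interval -0.98 to 1.31).

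Of the T genes, H2-T22 had the most counts, with 510.0, 494.2 and 631.8 normalized counts in wild-type mice and 481.6, 682.8 and 599.7 in RTP1,2DKO mice, a log2 fold change of 0.11 (-0.25 to 0.47). H2-T23 had 392.0, 240.4 and 463.1 against 463.6, 350.6 and 552.7. The mutant was higher in each same-numbered pair of H2-T23, by 0.24, 0.54 and 0.25 on the log2 scale, and the groups overlapped. Its fitted log2 fold change was 0.32 (-0.19 to 0.83) with an adjusted p of 0.7081, and it lay between 0.09 (without wild-type mouse 2) and 0.53 (without wild-type mouse 3) with single mice left out.

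H2-T24 had 375.5, 277.6 and 260.2 normalized counts in wild-type mice and 379.3, 279.1 and 276.3 in RTP1,2DKO mice. Mouse 1 was the highest of each genotype, and the pairs differed by 0.01, 0.01 and 0.09 on the log2 scale. H2-T10 had a log2 fold change of 0.18 (-0.70 to 1.06), and the sum of H2-T9, H2-T10 and H2-T22, which share reads, had 0.11 (-0.24 to 0.47).

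H2-T3, the thymus leukaemia antigen that in mice is known from intestinal epithelium and thymus, had 3.1, 4.8 and 5.5 normalized counts in wild-type mice and 14.8, 14 and 16.7 in RTP1,2DKO mice. The groups did not overlap. The log2 fold change was 1.73 with a 95% interval of 0.17 to 3.30, an unadjusted p of 0.0326 and an adjusted p of 0.3467 (edgeR), and of its words 95.6% occurred in no other gene. With single mice left out the log2 fold change stayed between 1.54 and 1.90. At these counts the level was 0.0674 to 0.109 TPM in wild-type mice and 0.222 to 0.303 TPM in RTP1,2DKO mice.

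H2-K2, the pseudogene beside H2-K1, had 4.1, 5.7 and 9.9 normalized counts in wild-type mice and 13.7, 14.8 and 33.3 in RTP1,2DKO mice, again without overlap. The log2 fold change was 1.63 (95% interval 0.13 to 3.14) with an adjusted p of 0.3634, and 1.10 without RTP1,2DKO mouse 3. Its counts were whole in 0 of 6 mice. It shared 8.2% of its words with H2-D1, and 83.4% occurred in no other gene.

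Among all 41 tested H2 genes, 4 had every RTP1,2DKO mouse above every wild-type mouse (H2-T3, H2-K2, H2-Q2 and H2-M1), against 7.17% of all genes tested and 7.82% of those with a mean of at least 10 counts. A single gene, H2-DMb2, had every RTP1,2DKO mouse below every wild-type mouse, against 9.24% of all genes tested. Each of these 5 genes had at most 62.8 normalized counts in a mouse.

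All 6 M10 genes had counts in every mouse. H2-M10.3 had 225.5, 208.9 and 271.2 normalized counts in wild-type mice and 197.0, 187.5 and 252.8 in RTP1,2DKO mice. Mouse 3 was the highest of each genotype, and the mutant was lower in each same-numbered pair, by a log2 ratio of -0.19, -0.16 and -0.10. The fitted log2 fold change was -0.15 (-0.57 to 0.27) with an adjusted p of 0.8511. On the TPM scale its groups did not overlap, at 7.54, 7.45 and 6.31 in wild-type and 6.15, 4.66 and 5.67 in RTP1,2DKO mice. Its normalized counts, the scale used here to compare mice, overlapped. Canx, a listed gene that serves class I, also had a lower mean TPM in RTP1,2DKO mice, 86.2 against 103, at a log2 fold change of -0.03. Why the scales differ was not tested. H2-M10.1 had 21.7, 36.3 and 51.8 against 34.8, 51.5 and 93.1, a log2 fold change of 0.71 (-0.25 to 1.67).

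The other M10 genes lay on either side of 0. Their log2 fold changes were -0.27 for H2-M10.2, -0.02 for H2-M10.4, 0.35 for H2-M10.5 and -0.16 for H2-M10.6. The 6 genes together had 418.9, 386.4 and 521.5 normalized counts in wild-type mice and 386.7, 369.8 and 586.0 in RTP1,2DKO mice. Refitted as a single sum, they had a log2 fold change of 0.02 with a 95% interval of -0.41 to 0.44.

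Since M10 genes are known from vomeronasal neurons, their neighbours in that cell type are given beside them. The 127 V2R genes summed to 7530 to 9472 normalized counts in wild-type mice and 8101 to 10363 in RTP1,2DKO mice, with 1 gene called upwards and 1 downwards of 125 tested, and 3 upwards and 1 downwards with the replicate block. Trpc2, the transduction channel of vomeronasal neurons, which is also made by some cells of the main epithelium, had 1304, 1099 and 1024 normalized counts in wild-type mice and 1402, 1474 and 1844 in RTP1,2DKO mice. Its groups did not overlap and its adjusted p was 0.1221. Of the 4 vomeronasal markers listed, 0 passed the test, and the G protein subunits Gnao1 and Gnai2 had log2 fold changes of -0.12 and 0.29. The groups did not overlap for Gnai2 and overlapped for Gnao1. In wild-type mice these subunits had means of 115 and 56.5 TPM, against 13.2 for Trpc2. Which cells supplied them was not tested. How much vomeronasal tissue each dissection held was not tested.

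The remaining M genes were scarce. H2-M1 had 14.5, 11.4 and 12.1 normalized counts in wild-type mice and 17.9, 18.3 and 27.4 in RTP1,2DKO mice, a log2 fold change of 0.74 (-0.45 to 1.92). H2-M3, which presents N-formylated peptides, had a log2 fold change of 0.24 (-0.83 to 1.30), and H2-M2 of -0.08 (-1.42 to 1.25). H2-M9 had 9.3, 5.7 and 13.2 against 2.1, 0.9 and 9.8 normalized counts, H2-M5 had a log2 fold change of 0.11, and H2-M11 had 0.0 to 6.9.

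Of the class II genes, H2-Aa had 1883, 2388 and 3104 normalized counts in wild-type mice and 2541, 3261 and 3460 in RTP1,2DKO mice. The mutant was higher in each same-numbered pair, by 0.43, 0.45 and 0.16 on the log2 scale, and the groups overlapped. The log2 fold change was 0.33 with a 95% interval of -0.05 to 0.71 and an adjusted p of 0.536. It was 0.17 without wild-type mouse 1, the lowest of the 6, and 0.53 without wild-type mouse 3, with an adjusted p of 0.1135 in the latter case.

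H2-Ab1 had 841.0, 1206.0 and 1193.0 normalized counts in wild-type mice and 1045.3, 1144.2 and 1553.2 in RTP1,2DKO mice. The mutant was lower in pair 2 and higher in the other two. The log2 fold change was 0.21 (-0.17 to 0.59), and it was 0.02 without RTP1,2DKO mouse 3. H2-Eb1 had 300.0, 228.0 and 320.8 against 335.1, 260.7 and 373.4, a log2 fold change of 0.19 (-0.23 to 0.61), with pair differences of 0.16, 0.19 and 0.22. H2-Eb2 had 12.4 to 24.5 normalized counts in all mice.

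The genes of peptide loading in class II lay around 0. H2-DMa had 108.6, 132.6 and 158.8 normalized counts in wild-type mice and 102.2, 123.0 and 153.9 in RTP1,2DKO mice, a log2 fold change of -0.08 (-0.61 to 0.46). H2-DMb2 had 54.8, 59.2 and 62.8 against 35.8, 52.3 and 46.1, without overlap, while H2-DMb1 had 80.7, 50.6 and 47.4 against 55.8, 71.5 and 51.0. Their sum, which is free of the division of reads between them, had a log2 fold change of -0.18 (-0.71 to 0.34) and an adjusted p of 0.85. H2-Ob, a subunit of the inhibitor of H2-DM, had a log2 fold change of 0.09 (-0.58 to 0.77), and its partner H2-Oa, with 4.4 to 33.3 normalized counts, of 0.50 (-1.06 to 2.06). H2-Ke6, which presents no antigen, had 231.7, 151.7 and 186.3 against 198.1, 147.4 and 199.9.

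By class, 0 of 31 tested class I genes and 0 of 9 tested class II genes passed, with medians of 0.13 and 0.19 on the log2 scale. The class I genes together had 5768 ± 531.6 normalized counts (SD, n = 3) in wild-type mice and 6698 ± 908.1 in RTP1,2DKO mice, and the class II genes 4175 ± 821.8 and 5004 ± 797.4. On the TPM scale the direction of the class I sum was the opposite, at 171, 189 and 143 TPM in wild-type and 174, 154 and 167 TPM in RTP1,2DKO mice, and the class II sums were 222 ± 36.3 and 227 ± 3.49 TPM. The class II non-classical genes summed to 17.3, 18.8 and 12.6 TPM in wild-type and 11.8, 12.4 and 12.0 TPM in RTP1,2DKO mice, without overlap, whereas their normalized counts overlapped. The summed level of all H2 genes was 404 ± 55.1 and 404 ± 16.5 TPM. In normalized counts it was 10133 ± 1326.4 in wild-type mice and 11884 ± 1706.0 in RTP1,2DKO mice, so the 2 scales did not give the same picture. No test was made on these class sums.

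The precision of the comparison depended on depth. For the 12 genes with a mean of at least 100 normalized counts, the standard error of the log2 fold change was 0.13 to 0.25, and every 95% interval lay between -0.61 and 0.83. These intervals leave out a rise beyond 1.77-fold and a fall below 0.656 of the wild-type level for each gene taken alone. For the 4 genes with at least 1000 normalized counts (H2-Aa, H2-K1, H2-D1 and H2-Ab1) the intervals lay between -0.17 and 0.71. Over the 31 H2 genes with a mean of at least 10 normalized counts the standard error reached 0.72 and the intervals ran from -1.55 to 3.14.

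Of the 17 listed genes that serve class I, 0 passed the test, with 13 positive log2 fold changes and a median log2 fold change of 0.13. B2m had 1849, 3530 and 2698 normalized counts in wild-type mice and 2515, 3519 and 3425 in RTP1,2DKO mice, a log2 fold change of 0.23 (-0.21 to 0.67), which was 0.02 without wild-type mouse 1 and 0.47 without wild-type mouse 2. Wild-type mouse 1 was the lowest for B2m, as it was for H2-K1, H2-Aa and H2-Ab1. The peptide transporter subunits Tap1 and Tap2 had log2 fold changes of -0.18 (-0.73 to 0.38) and 0.20 (-0.24 to 0.63), and tapasin (Tapbp), which holds class I to the transporter, of 0.17 (-0.09 to 0.43). Psmb8, an inducible subunit of the immunoproteasome, had 35.2, 56.3 and 54.0 against 82.2, 61.9 and 91.1 normalized counts, without overlap and with an adjusted p of 0.4275. Psmb9, another such subunit, had 7.7 to 19.2 normalized counts in all mice. Nlrc5, the transactivator of class I genes, had a log2 fold change of 0.17 (-0.34 to 0.67).

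Of the 10 listed genes that serve class II, 0 passed the test, with 7 positive log2 fold changes and a median log2 fold change of 0.13. Cd74 had 1259, 1110 and 1126 normalized counts in wild-type mice and 987.4, 1237.5 and 1361.1 in RTP1,2DKO mice, a log2 fold change of 0.04 (-0.26 to 0.34). Ciita, the master regulator of class II transcription, had 85.9, 61.1 and 110.3 against 123.3, 86.3 and 82.3, a log2 fold change of 0.18 (-0.46 to 0.83). Of the 9 class I-like genes outside the complex, 0 passed, and the smallest adjusted p among them was 0.1442.

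Markers of the cells that make most MHC are given as counts of calls and sums over their whole lists, with few genes named. Their part in the H2 levels was not tested. Of the 4 leukocyte markers 0 passed, with summed normalized counts of 1317 to 2337 in wild-type mice and 1745 to 1958 in RTP1,2DKO mice. Of the 11 macrophage markers 0 passed, with sums of 10349 to 17053 and 14229 to 17600. Lyz2, the lysozyme of macrophages, which nasal glands can also make, supplied 6705 to 13317 of these, and wild-type mouse 1 was the lowest. The receptor Csf1r had a log2 fold change of 0.05, and the pan-leukocyte gene Ptprc (CD45) of 0.04.

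Of the 7 dendritic cell markers 0 passed, with sums of 424.5 to 508.5 in wild-type mice and 450.0 to 486.8 in RTP1,2DKO mice, led by Zbtb46 and Itgax with log2 fold changes of -0.28 and 0.34. Of the 5 B cell markers 0 passed, with sums of 257.6 to 584.9 and 369.8 to 683.9. The B cell gene Ms4a1 had a log2 fold change of 0.34. Of the 9 T and NK cell markers 0 passed, with sums of 142.7 to 208.9 and 155.2 to 208.7. No marker of these 5 lists was at 0 in all mice.

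Of 24 interferon-stimulated genes, 0 passed, with 19 positive log2 fold changes and a median log2 fold change of 0.17. Their sums were 10115 to 10863 normalized counts in wild-type mice and 9985 to 13167 in RTP1,2DKO mice. Ifit1, the most abundant of them, had a log2 fold change of -0.19. With the replicate number as a block, 1 of the 24 passed, Rsad2 (viperin), with an adjusted p of 0.0108 against 0.0771 without the block, and with DESeq2's Wald test its adjusted p was 0.0144. Rsad2 had 721.0, 906.4 and 681.4 normalized counts in wild-type mice and 1298.2, 1589.8 and 877.1 in RTP1,2DKO mice. An unadjusted p under 0.05 (edgeR) was found for 5 of the 24, against 11.8% of all genes tested. Of these, Rsad2, Usp18, Isg15 and Irf7 had log2 fold changes of 0.71, 0.47, 0.58 and 0.79, and Ifit2 of -0.44.

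**Figure D5:**
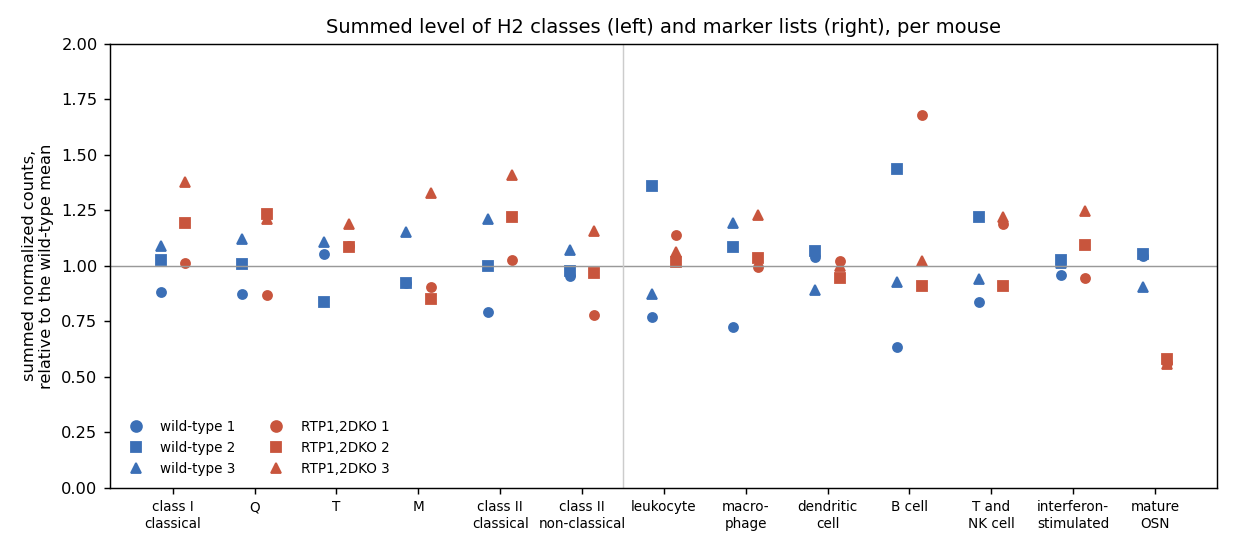
Summed normalized counts of the H2 classes (left of the line) and of marker lists (right), divided by the wild-type mean of each list, with a symbol per mouse, wild-type in blue and RTP1,2DKO in red. The groups overlap for each of the 6 H2 classes drawn, which leave out H2-K2 and H2-Ke6, and for each immune or interferon list drawn, and do not overlap for the mature OSN markers, where RTP1,2DKO mice had 0.565 of the wild-type mean.

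The neuronal markers of the same libraries differed between the genotypes. Omp, a protein of mature OSNs, had 67308, 60014 and 67100 normalized counts in wild-type mice and 27622, 36679 and 39605 in RTP1,2DKO mice, and it fell with an adjusted p of 0.003. Stoml3, Adcy3, Cnga4, Cnga2 and Gnal also fell, with log2 fold changes of -2.00, -1.41, -1.18, -1.05 and -0.94. Gnb1 and Gng13 had -0.47 and -0.76 with adjusted p-values of 0.0775 and 0.0857, and of 0.0357 and 0.0288 with the replicate block (edgeR). Gap43, a marker of immature neurons, rose by 0.58 on the log2 scale with an adjusted p of 0.0418, and was the single gene past the test of the 8 markers of other mucosal cells. This call was lost, with adjusted p-values up to 0.1712 (edgeR), when any single mouse but wild-type mouse 1 was left out. The most abundant gene of that list, Bpifb9b, had 1526336 to 5170209 normalized counts in all mice, and Cyp2a5 had a log2 fold change of 0.11.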

How the data were processed

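RNA of the olfactory mucosa was sequenced from 3 wild-type and 3 RTP1,2DKO mice. The authors assigned reads with kallisto (version not given in the sources used here) to UCSC mouse transcripts with extended odorant receptor annotations, and the build in the submitters' processing notes is mm10. The deposited estimated counts per transcript are not normalized, while the deposited TPM values are scaled to the same total in each mouse. The library kit is named differently in the labels and the methods, but is stranded in both, and the strand setting of kallisto is not given.

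Estimated counts were summed per gene and rounded. edgeR 4.0.16 (quasi-likelihood F-test, DESeq2 1.42.0 size factors, R 4.3.3) was fitted to 22152 genes, leaving out those without a count in any mouse, with genotype as the only term, and p-values were adjusted by Benjamini-Hochberg over all of them, with a threshold of 0.05. The 95% intervals are those of single genes and are not adjusted. The fit was tested on simulated data, and the outcome is not reported here. Depth was 31125410 to 41636996 counts per mouse. The intervals rest on these 3 mice per group and on dispersions that edgeR moderates across genes, so they are not the spread between mice alone. Tables were made with Python 3.11.15, pandas 2.3.3 and numpy 2.4.6.

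Across 18156 genes, deviations from the mean of each genotype had correlations of 0.14, 0.177 and 0.101 between mice of the same number. Between the genotypes, mice of unlike numbers had correlations of -0.217 to 0.09, so the highest of these came near the lowest same-numbered value. Deviations from a group mean balance out within the group, so positive and negative correlations come together. With so few mice, the correlations cannot decide whether the numbers mark littermates, and the labels do not say so. The methods describe sex-matched littermates, so pairing by number was assumed and fitted as an alternative block. The other alternatives were TMM, a filter on low counts, DESeq2's Wald test, edgeR's likelihood-ratio test, sums of genes that share reads, and each mouse left out in turn.

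Every H2 gene with a mean of at least 10 counts was named, as were the M genes below it. Of the pathway lists, B2m, Tap1, Tap2, Tapbp, Psmb8, Psmb9, Nlrc5, Cd74 and Ciita were named, and of the marker and interferon lists the genes past the threshold and the top 2 by mean. Some genes that this rule names are not reported here. The genes and lists were chosen with earlier results of these data known, and the enhancer A letters were shortened after a first search with longer ones. Trpc2, Rsad2, Usp18, Isg15, Irf7, Ifit2, Canx, H2-Q6 and H2-Q8 were named after their values were seen.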

Additional observations from a re-analysis of the deposited data

How the results depend on the processing

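No H2 gene passed the threshold under any of the alternatives run, and the smallest adjusted p of an H2 gene under any of them was 0.0936 (H2-K1, replicate block). Over all genes, the count of calls was 799 and lay between 748 and 1108 with TMM, the filter on low counts, the Wald and likelihood-ratio tests and the replicate block, and between 598 and 777 with a mouse left out. Of 483 log2 fold changes of 41 named genes under alternatives, 437 kept their sign and side of the threshold, 46 changed sign, and 0 passed. The cause of the sign changes was not tested. H2-DMb1, at -0.00, became 0.0 with TMM and 0.02 with the replicate block. H2-M10.2, H2-M10.3, H2-M10.4 and H2-M10.6, below 0 alone, became 0.02 as the M10 sum. H2-Q7, at -0.01, became 0.16 as part of the sum of H2-Q6 to H2-Q9 and 0.05 with the replicate block. The replicate block, which pairs mice of the same number, changed no H2 call. With each mouse left out in turn, 21 genes changed sign. Among class I genes the range was -0.02 to 0.22 for H2-D1, -0.09 to 0.47 for H2-Q1, -0.09 to 0.15 for H2-Q4, -0.03 to 0.44 for H2-Q5, -0.32 to 0.21 for H2-Q7, -0.04 to 0.37 for H2-T10, -0.01 to 0.23 for H2-T22 and -0.13 to 0.21 for H2-T24. It was -0.53 to 0.36 for H2-M10.4, -0.53 to 0.08 for H2-M10.6, -0.50 to 0.56 for H2-M2 and -0.11 to 0.59 for H2-M3. Among class II genes and H2-Ke6 it was -0.24 to 0.07 for H2-DMa, -0.16 to 0.28 for H2-DMb1, -0.29 to 0.92 for H2-Oa, -0.20 to 0.26 for H2-Ob and -0.20 to 0.11 for H2-Ke6. Among pathway genes it was -0.36 to 0.08 for Tap1, -0.01 to 0.30 for Nlrc5, -0.07 to 0.16 for Cd74 and -0.02 to 0.40 for Ciita. The standard error of the log2 fold change was at most 0.25 for the 12 genes with at least 100 normalized counts and reached 0.72 among the 31 with at least 10.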

Other observations

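Genes that share sequence with H2 genes but carry other names were chosen after their values were seen. Gm11127 had 51.7, 35.3 and 14.3 normalized counts in wild-type mice and 47.4, 30.5 and 36.3 in RTP1,2DKO mice, with a log2 fold change of 0.16 and an adjusted p of 0.9506 (edgeR). A930015D03Rik, which shares 27.7% of the 31-base words of H2-T22, had 25.9, 37.2 and 30.9 against 16.9, 38.4 and 42.1. Gm8909 had at most 3.3 normalized counts in a mouse. BC051537, which shares 18.3% of the words of H2-Oa, had no counts in the 3 wild-type mice and 1.1, 5.2 and 2.9 in RTP1,2DKO mice. The V1R vomeronasal receptor genes, which like V2R genes belong to the vomeronasal organ, had 0 of 191 tested genes past the threshold, and their summed normalized counts in RTP1,2DKO mice were 1.04 times those in wild-type mice. H2-T-ps, a pseudogene, had counts in the same mice as H2-Q8, with 4.8 in wild-type mouse 2 and 5.3 in RTP1,2DKO mouse 1, and was at 0 in the other 4.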
